A study of Mus musculus with 6 samples.

Results

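Aminoacyl-tRNA synthetases, the enzymes that load each transfer RNA (tRNA) with its amino acid, were examined in mouse leukemia stem cells from bone marrow and from liver. Members were taken by gene symbol, and 39 of the 53735 genes in the table matched. They were 20 genes of cytosolic synthetases or their subunits, 17 genes of mitochondrial synthetases (symbols ending in 2) and the 2 scaffold genes Aimp1 and Aimp2. None of the 39 passed the test for a difference between the tissues. Their fold changes were small, from 1.24-fold lower to 1.28-fold higher in liver.

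A synthetase joins an amino acid to the end of its tRNA at the cost of ATP, and the ribosome then reads the charged tRNA. Most animals keep separate nuclear genes for the cytosolic and the mitochondrial enzyme, while the products of Gars (glycine) and Kars (lysine) serve both compartments, and mitochondria make glutaminyl-tRNA by amidation without a glutaminyl-tRNA synthetase of their own. Several cytosolic enzymes sit with AIMP scaffold proteins in a multi-synthetase complex. Uncharged tRNA activates the kinase GCN2 (Eif2ak4), which through the transcription factor ATF4 raises many cytosolic synthetase genes, and fast-growing cells, leukemia cells among them, draw heavily on this machinery.

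The study compared 2 groups of 3 libraries each, leukemia stem cells isolated from the bone marrow or from the liver of untreated C57 mice 13 days after leukemia cells were transplanted. The sources used here name neither the leukemia's driver, nor a gate, nor the number of animals. The labels call the libraries technical replicates, so a p-value here reflects spread among libraries and may not reflect spread among animals. Depth was 15.4 to 18.5 M reads in bone marrow and 9.73 to 13.8 M in liver. All libraries are labelled male, but Xist stood at 4860 and 6229 normalized counts in replicate 1 of bone marrow and liver, at 4.28 and 1.42 in replicate 2 and at 2486 and 2425 in replicate 3. Xist thus differed far more between replicate numbers than between tissues, which the labels male and technical replicates do not describe. Whether the libraries come from different animals or pools was not tested. Of the hepatocyte markers, Alb, Ttr, Fabp1, Serpina1a, Fgb, Apoc3 and Cyp3a11 had 0 reads in all libraries, and so had the Kupffer cell markers Clec4f, Vsig4 and Cd5l, while Apoa1 stood at 2285 to 5659. The other 5 of 8 Kupffer cell markers were detected, and the list summed to 344 to 508 in bone marrow and 178 to 452 in liver. Of 8 liver endothelium markers 7 were detected, with sums of 646 to 1322 in bone marrow and 678 to 1986 in liver. Progenitor genes were present in all 6 libraries, with Kit at 419 to 658 and Hoxa9, a homeobox gene of leukemias, at 2210 to 2841 normalized counts. Of 11 tested progenitor genes 4 had a log2 fold change above 0 and 7 below, with a median of -0.23, and none passed the test. The tissues did not overlap in 3 of them (27.3%, against 22.3% of all genes). Of these Hoxa9 was higher in liver, and Cd34 and Slamf1 were lower. The sum of 12 neutrophil markers was 227 to 324 in bone marrow libraries, against 622, 4334 and 2561 in liver replicates 1, 2 and 3, and 2 of the 9 tested ones (Cxcr2 and Mpo) passed the test, higher in liver. Of 3 tested eosinophil markers Siglecf was lower in liver (called), while Epx (called) and Prg2 (adjusted p = 0.053) stood above all bone marrow libraries. Their sum, most of it Siglecf, was 2333 to 2565 in bone marrow, against 1278 to 1413 in liver. Basophil and mast cell markers summed to 26821 to 31533 and to 18366 to 28176. Of these 9 markers Tpsb2 was called lower and Prss34 higher in liver, and Cpa3, Tpsab1, Fcer1a and Hdc were lower in liver without overlap. The summed erythroid markers were 7625 to 9053 in bone marrow, against 4985 to 5405 in liver. The part of these differences in the values that follow was not tested.

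Cytosolic synthetase transcripts were more abundant per length than mitochondrial ones. Dividing normalized counts (reads over a size factor per library) by exon length gave a median level of 828 normalized counts per kb over the 20 cytosolic genes, with a range from 230 for Cars (cysteine) to 2152 for Vars (valine). For 16 mitochondrial genes, all but Lars2, the median level was 215 per kb, with a range from 36.2 for Wars2 (tryptophan) to 434 for Rars2 (arginine). Of the 20 cytosolic genes 18 lay above all of these 16, and the exceptions were Aars (416 per kb) and Cars. The 5750 exon bases used for Aars include 1326 shared with Exosc6 on the same strand, which held 0 counts. A level of Aars without these bases was not tested. Among 18 pairs of a cytosolic gene and the mitochondrial gene for the same amino acid, the cytosolic transcript was the more abundant per length in 16, by up to 23.0-fold for Wars over Wars2. The other 2 pairs were Cars with Cars2, at a ratio of 0.672, and Lars with Lars2.

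**Figure D1:**
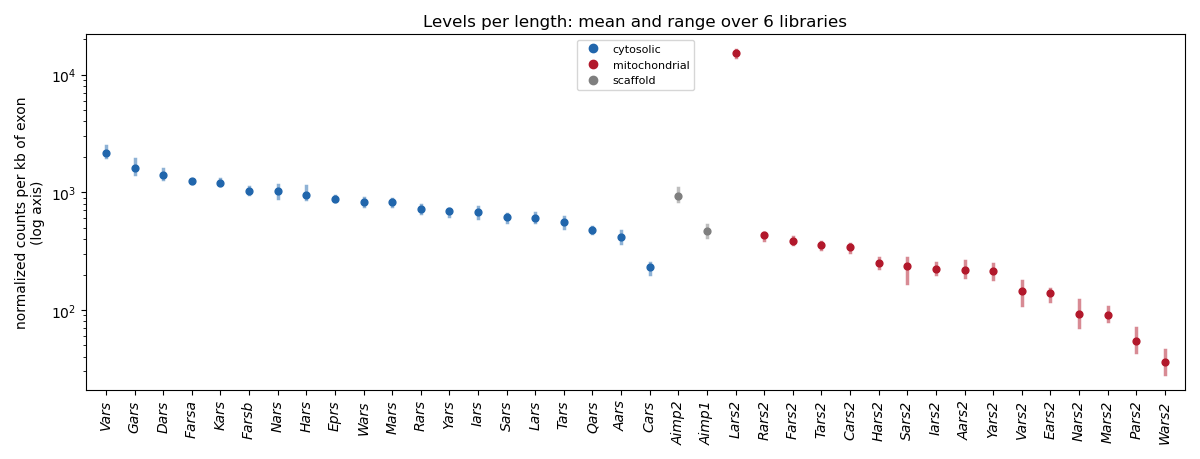
Level of 38 of the 39 genes in normalized counts per kb of exon on a log axis, as the mean (point) and range (bar) over 6 libraries. The cytosolic genes lie between 230 and 2152 per kb and the mitochondrial genes between 36.2 and 434, with Lars2 alone far above at 15155.

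Lars2, named for the mitochondrial leucyl-tRNA synthetase, stood apart from every other member. It held 55201, 56741 and 59267 normalized counts in bone marrow replicates 1, 2 and 3 and 58410, 62401 and 62060 in liver. The lowest liver library lay between the bone marrow libraries, so the tissues overlapped. Its mean ranked 7 from the top of the whole table, between Eef1a1 (46450) and the mitochondrial ribosomal RNA mt-Rnr2 (60136), and it took 0.399% to 0.453% of all counts. Per length its level was 7.04 times that of Vars, the next member, and 70.4 times the median of the other 16 mitochondrial genes. In GENCODE M21 a Lars2 transcript shares 72 bases at 98.6% identity with Gm15564, an annotated antisense RNA with no row in the table. The origin of these reads was not tested, so the Lars2 value is an uncertain measure of synthetase mRNA. Its log2 fold change was 0.10 ± 0.05 (SE), with an adjusted p of 0.38.

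Setting liver against bone marrow addresses whether leukemia cells carry other levels of charging enzyme transcripts in the liver. All 39 members passed the filter on low values (a mean of at least 10 normalized counts), and the fewest reads behind any value were 95, for Wars2. The limma fit over 14298 genes called 0 of the 39 at an adjusted p under 0.05, where it called 1.01% of all genes (0.42% higher and 0.594% lower in liver). At an unadjusted p under 0.05 there were 9 members, 8 higher and 1 lower in liver, where 15.7% of all genes passed that limit (7.65% higher and 8.04% lower). DESeq2 on the recovered reads called Yars2 (4.35% of all genes called) and edgeR called 0 (0.993%). Weighting the libraries by their estimated quality gave calls for 10 members, 8 higher (Aimp2, Gars, Hars2, Lars2, Mars, Sars2, Tars and Yars2) and 2 lower (Iars2 and Vars), in a fit that called 22.5% of all genes, 11.0% higher and 11.5% lower in liver. That fit gave a convergence warning. The liver libraries lay entirely above or below the bone marrow libraries in 13 of the 39 members (33.3%), against 22.3% of all genes tested. Of these members 10 were higher and 3 lower in liver, against 11.4% and 10.9% of all genes. The log2 fold change was above 0 for 30 members (76.9%) and for 48.4% of all genes, with medians of 0.10 and -0.01. Counts per bulk library cannot tell fewer cells of a type from less RNA per cell.

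Measured by the spread among these libraries, the intervals were narrow for most members. They may not reflect spread among animals, whose number is not given. For 35 of the 39 members the 95% interval of the log2 fold change lay wholly within 1.5-fold in either direction, which held for 54.3% of all genes and for 79.4% of genes at or above the mean of the lowest member. All 20 cytosolic genes were among the 35. The exceptions were Wars2, Pars2, Sars2 and Nars2, all mitochondrial, for which a change of 1.5-fold lies inside the interval.

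**Figure D2:**
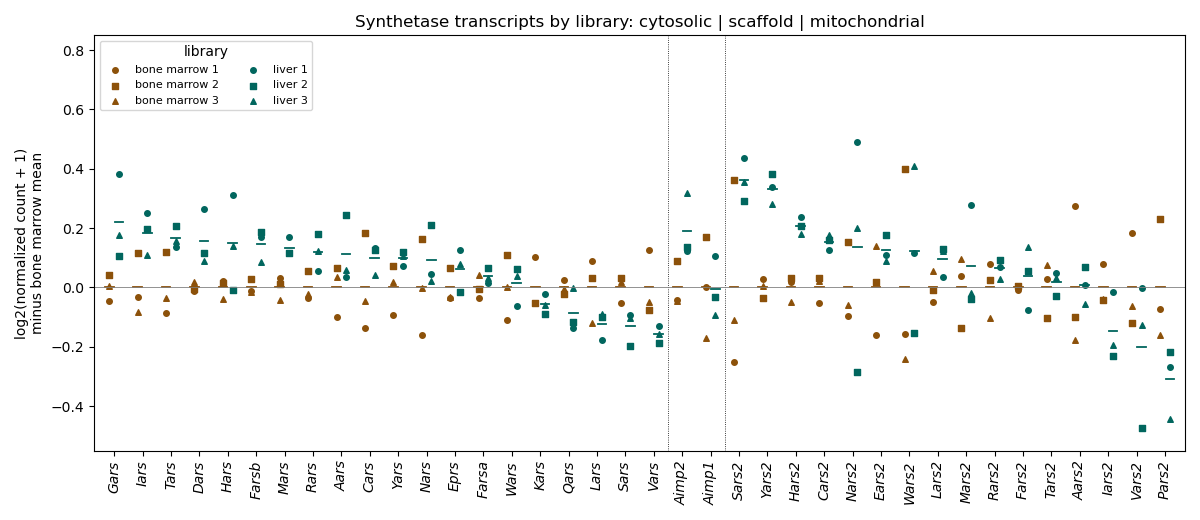
log2(normalized count + 1) of 38 of the 39 members in each library, relative to its bone marrow mean, with bone marrow in brown, liver in green, a marker shape per replicate and a bar at the tissue mean. Yars2 has its 3 liver libraries above its 3 bone marrow libraries.

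Among the cytosolic genes Gars had the largest positive fold change. Its transcript, for glycyl-tRNA synthetase, held 3412, 3620 and 3527 normalized counts in bone marrow and 4583, 3791 and 3980 in liver. All liver libraries were above all bone marrow libraries, replicate 1 by most, and the log2 fold change was 0.22 ± 0.08 (SE; limma adjusted p = 0.23). Without liver replicate 1 it was 0.14. Tars (threonine), Farsb (the beta subunit of the phenylalanine enzyme), Mars (methionine), Dars (aspartate) and Rars (arginine) also had liver libraries above all bone marrow libraries, with log2 fold changes of 0.17, 0.15, 0.13, 0.16 and 0.12 and adjusted p values from 0.26 to 0.43. Farsa, the other subunit of the phenylalanine enzyme, had a log2 fold change of 0.04 with overlapping tissues. Mars shares 68 exon bases with Ddit3 on the opposite strand, and the library kit does not mark strand.

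Iars, Hars and Yars had positive fold changes with overlapping tissues. Iars, the isoleucyl enzyme of the multi-synthetase complex, held 2749, 3044 and 2652 normalized counts in bone marrow and 3341, 3221 and 3031 in liver. Bone marrow replicate 2 was above liver replicate 3, and the log2 fold change was 0.19 ± 0.07 (limma adjusted p = 0.27). Iars shares 1656 bases at 96.0% identity with the pseudogene Gm4849, so its count is uncertain where reads could be split. Hars, for histidine, held 1823, 1815 and 1748 in bone marrow against 2230, 1784 and 1980 in liver, with liver replicate 2 inside the bone marrow range (0.15 ± 0.09, adjusted p = 0.47). The Hars value was 0.07 without liver replicate 1 and 0.23 without liver replicate 2. Yars, the cytosolic tyrosyl enzyme, held 1812, 2032 and 1958 in bone marrow and 2029, 2097 and 2080 in liver. The tissues overlapped by a few counts, at a log2 fold change of 0.10 ± 0.06 (limma adjusted p = 0.51), or 0.05 without bone marrow replicate 1.

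The 5 cytosolic genes with a negative fold change were Vars, Sars, Lars, Qars and Kars. Vars, the most abundant of the cytosolic transcripts per length, held 10233, 8888 and 9065 normalized counts in bone marrow and 8580, 8234 and 8417 in liver. Every liver library was below every bone marrow library, and the log2 fold change was -0.16 ± 0.06 (limma adjusted p = 0.29), or -0.09 without bone marrow replicate 1. Sars, for serine, held 2264, 2398 and 2379 in bone marrow and 2199, 2045 and 2184 in liver, again without overlap (-0.13 ± 0.06, adjusted p = 0.33). Lars (leucine), Qars (glutamine) and Kars (lysine), all of the complex, had log2 fold changes of -0.12, -0.09 and -0.06 with overlapping tissues. Eprs, the fused glutamyl-prolyl enzyme, held 4102, 4400 and 4116 in bone marrow and 4587, 4158 and 4445 in liver, interleaved between the tissues (0.06 ± 0.06, adjusted p = 0.66), and its value ran from 0.03 to 0.10 as single libraries were left out. Wars, which interferon is known to induce, had a log2 fold change of 0.01 with overlapping tissues.

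Fold changes were also read by complex and by catalytic class. The 8 synthetases of the complex had a median log2 fold change of 0.09, with 5 above 0 and 3 below, and the 12 free ones 0.10, with 10 above and 2 below. By catalytic class the medians were 0.10 for 9 cytosolic genes of class I and 0.13 for 10 of class II, leaving out Eprs, which holds an enzyme of each class. The scaffold gene Aimp2 held 1013, 1110 and 1010 normalized counts in bone marrow and 1135, 1146 and 1300 in liver, all above (0.19 ± 0.08, limma adjusted p = 0.32), and Aimp1 had a log2 fold change of -0.01. Aimp2 shares 29.4% of its exon bases with Eif2ak1 on the opposite strand.

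Some start regions of the cytosolic genes hold a motif in common. RefSeq windows from 250 bases before to 50 bases after the start (GRCm38.p6) matched 29 of the 39 members, among them 13 cytosolic and 14 mitochondrial genes. The core of the C/EBP-ATF response element, to which ATF4 binds with a C/EBP partner, was searched as TGATGNAA on both strands. It was found in 5 of the 13 cytosolic windows, those of Aars, Gars, Iars, Tars and Yars, in 0 of the 14 mitochondrial ones and in 4.51% of the 27025 genes with a window. The stretches below are shown because they hold these matches, with the mitochondrial partners of 3 of them beside them. Capitals mark the motif, and each runs from 40 bases before the RefSeq start (120 for Aars) to 20 after it. In GENCODE M21 the genes Tars2 and Aars begin further upstream, at 95760206 and 111033144, outside their windows. Sequence around those positions was not searched.
Aars, chr8:111033722-111033861, plus strand: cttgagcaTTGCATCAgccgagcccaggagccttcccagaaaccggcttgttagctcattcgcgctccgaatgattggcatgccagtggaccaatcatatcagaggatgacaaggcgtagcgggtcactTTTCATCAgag
Gars, chr6:55037961-55038020, plus strand: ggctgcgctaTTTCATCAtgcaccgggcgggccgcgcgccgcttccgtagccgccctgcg
Iars, chr13:49682090-49682149, plus strand: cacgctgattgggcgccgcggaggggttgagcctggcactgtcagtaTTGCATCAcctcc
Tars, chr15:11399639-11399698, minus strand: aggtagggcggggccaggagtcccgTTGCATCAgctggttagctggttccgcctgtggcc
Yars, chr4:129189863-129189922, plus strand: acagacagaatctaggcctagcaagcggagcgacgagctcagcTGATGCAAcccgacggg
Iars2, chr1:185329382-185329441, minus strand: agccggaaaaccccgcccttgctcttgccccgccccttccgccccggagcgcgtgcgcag
Tars2, chr3:95754958-95755017, minus strand: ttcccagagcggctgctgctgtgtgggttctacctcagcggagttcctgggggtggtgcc
Yars2, chr16:16302925-16302984, plus strand: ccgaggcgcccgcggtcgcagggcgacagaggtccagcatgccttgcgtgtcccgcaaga

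In Aars, Iars and Tars the element reads TTGCATCA, in Yars it reads TGATGCAA on the other strand, and in Gars and at the second site of Aars TTTCATCA. The 5 genes with the motif had log2 fold changes from 0.10 to 0.22, all above 0 and none past the test, with a median of 0.17. The 8 cytosolic windows without it belonged to genes with a median of 0.05, 5 above 0 and 3 below. The E-box CACGTG, the site of MYC and related factors, was found in 4 of the 13 cytosolic windows (Aars, Farsb, Iars and Tars), in 1 of the 14 mitochondrial ones (Ears2) and in 8.09% of all genes. CCGGAAGT, an ETS site, was in 2 cytosolic windows and 1 mitochondrial one against 4.31% of all genes, while TGACGTCA, a cAMP response element, and the palindromic NRF1 site were in none of the windows of either kind (2.03% and 1.07% of all genes). No match shared letters with a match of another of these motifs. A match describes letters in this window and shows no binding.

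Mitochondrial synthetase transcripts spread more widely around 0 than cytosolic ones, from -0.31 to 0.36 against -0.16 to 0.22 on the log2 fold change scale. The ends of the wider range were Pars2 and Sars2, each with an SE of 0.16. Among cytosolic genes the SE ran from 0.05 (Mars) to 0.10 (Cars). The part of this lower precision in the wider spread was not tested. Yars2, the mitochondrial tyrosyl enzyme, had the smallest adjusted p of all members. It held 604, 578 and 595 normalized counts in bone marrow and 749, 772 and 720 in liver, with every liver library above every bone marrow library. The log2 fold change was 0.33 ± 0.07 (SE) with a 95% interval from 0.16 to 0.51 and a limma adjusted p of 0.097. DESeq2 gave an adjusted p of 0.034 and edgeR 0.10, within a range from 0.0095 to 0.87 over all 17 alternatives. Yars2 (GRCm38 chromosome 16, 16302965 to 16309640, plus strand) shares no exon bases with another annotated gene.

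Sars2, for mitochondrial seryl-tRNA, had the largest fold change but overlapping tissues. It held 319, 488 and 352 normalized counts in bone marrow and 514, 465 and 486 in liver. Bone marrow replicate 2 was as high as the liver libraries, and the log2 fold change was 0.36 ± 0.16 (limma adjusted p = 0.34). Without that library it was 0.54, and without bone marrow replicate 1 it was 0.24. Its cytosolic partner Sars had the opposite sign, as described above. Hars2 held 793, 799 and 755 in bone marrow and 923, 903 and 886 in liver, without overlap (0.21 ± 0.07, limma adjusted p = 0.21). Hars and Hars2 lie head to head and share 195 exon bases at their starts on opposite strands, so that reads there cannot be assigned to either. Cars2 was likewise higher in all liver libraries, at 0.15 on the log2 scale.

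Pars2, Vars2 and Iars2 were the mitochondrial genes with a negative fold change. Pars2, for mitochondrial prolyl-tRNA, was scarce and held 173, 214 and 163 normalized counts in bone marrow and 151, 156 and 134 in liver. The tissues did not overlap, and the log2 fold change was -0.31 ± 0.16 (limma adjusted p = 0.42), or -0.19 without bone marrow replicate 2. Vars2 held 775, 627 and 653 in bone marrow against 681, 490 and 625 in liver, which overlapped (-0.20 ± 0.14, adjusted p = 0.56), and its log2 fold change was -0.06 without liver replicate 2 and -0.11 without bone marrow replicate 1. Iars2 held 1656, 1522 and 1527 in bone marrow and 1551, 1336 and 1370 in liver, where liver replicate 1 lay inside the bone marrow range (-0.15 ± 0.08, adjusted p = 0.44). Iars2 shares 22.9% of its exon bases with Rab3gap2 on the opposite strand. The other 9 mitochondrial genes had log2 fold changes from 0.01 (Aars2) to 0.14 (Nars2) with overlapping tissues.

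**Figure D3:**
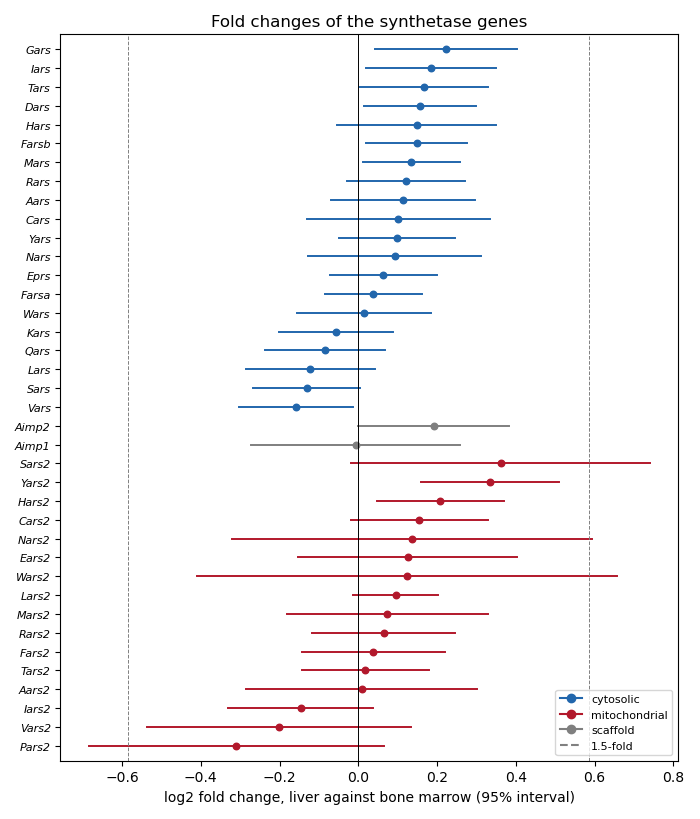
log2 fold change of liver against bone marrow for 38 of the 39 members with its 95% interval from the limma fit, coloured by role, and dashed lines at 1.5-fold. The intervals of Sars2, Nars2, Wars2 and Pars2 cross the dashed lines, and the others shown stay within them.

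The balance between the compartments differed between the tissues by less than the spread between libraries. The mean log2 level of the 20 cytosolic genes exceeded that of the 17 mitochondrial genes by 1.63, 1.65 and 1.68 in bone marrow replicates 1, 2 and 3 and by 1.61, 1.69 and 1.63 in liver. The liver values thus spanned the bone marrow values, and the mean difference between the tissues was -0.01, against an SD of 0.02 in bone marrow and 0.04 in liver (n = 3 each). The median log2 fold change was 0.10 for cytosolic and 0.08 for mitochondrial genes, with 15 of 20 and 14 of 17 above 0. Of the 18 pairs, 13 had both fold changes above 0, 1 (Vars with Vars2) had both below, and 4 differed in sign. Those 4 were Iars and Iars2, Sars and Sars2, Lars and Lars2, and Eprs with Pars2.

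The cytosolic mean by library showed the replicate spread that surrounds so small a shift. Relative to the bone marrow mean, the 20 cytosolic genes averaged -0.03, 0.05 and -0.02 on the log2 scale in bone marrow replicates 1, 2 and 3 and 0.08, 0.06 and 0.05 in liver. The highest bone marrow library and the lowest liver library were thus nearly level. The mitochondrial genes averaged 0.00, 0.05 and -0.05 in bone marrow and 0.11, 0.02 and 0.07 in liver, with overlap. The cytosolic median of 0.10 became 0.05 without bone marrow replicate 1.

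Around the synthetases, transcripts of the regulator ATF4 were higher in liver while a main tRNA carrier was lower. Atf4 held 2781, 2724 and 2877 normalized counts in bone marrow and 3393, 3561 and 3581 in liver (log2 fold change 0.33 ± 0.05, limma adjusted p = 0.041), and the stress factor gene Atf3 rose by 0.78 ± 0.12 (adjusted p = 0.041). They were the only 2 of 26 tested genes of the ATF4 amino acid response that passed, against 1.01% of all genes, and the list's median was 0.04. Of the 26 log2 fold changes 16 were above 0 and 10 below. The 2 largest in size were negative, -1.93 for Vldlr and -1.07 for Trib3, with overlapping tissues and not past the test. Over these 26 the tissues did not overlap in 6 (23.1%, against 22.3% of all genes). In liver 4 of them were higher (Atf4, Atf3, Ddit4 and Cebpb) and 2 lower (Eif2ak3 and Pycr1). None of the list's 6 genes of asparagine, proline and serine synthesis passed. Pycr1 (proline) was lower in all liver libraries than in any bone marrow library, at a log2 fold change of -0.82 ± 0.25 (limma adjusted p = 0.19), and Aldh18a1 of the same pathway was at 0.05. The values were -0.18 for Asns (asparagine synthetase) and 0.11, 0.09 and 0.13 for Phgdh, Psat1 and Psph of serine synthesis, and these 6 genes were chosen for their role after their values were seen. The sensor kinase gene Eif2ak4 had a log2 fold change of 0.03. Eef1a1, the elongation factor that brings charged tRNA to the ribosome, held 51329, 49200 and 50551 in bone marrow and 43413, 41925 and 42285 in liver, a fall by 0.24 ± 0.04 on the log2 scale (adjusted p = 0.041). It was the 1 of 16 cytosolic elongation and eIF2 genes that passed, against the same 1.01%, while the list's median was 0.12. The tissues did not overlap in 12 of the 16 (75.0%, against 22.3% of all genes), 8 higher and 4 lower in liver. The 4 lower ones were Eef1a1, Eef1b2, Eef1g and Eef2, the last at a log2 fold change of -0.28. The calls of Atf4, Atf3 and Eef1a1 survived the removal of liver replicate 1 but of none of the other 5 libraries, with limma adjusted p up to 0.28. The log2 fold changes in those 6 fits stayed within 0.31 to 0.35 for Atf4, 0.70 to 0.86 for Atf3 and -0.26 to -0.23 for Eef1a1. Over all 17 alternatives the adjusted p ranged up to 0.87 for Atf4 and Atf3 and 0.91 for Eef1a1, whose log2 fold change was -0.01 after quantile normalization. edgeR gave adjusted p values of 0.051 for Atf4, 0.041 for Atf3 and 0.033 for Eef1a1.

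No gene passed in the other lists. Among 22 accessory genes of tRNA charging and modification the median was 0.04, and the smallest adjusted p values were those of Pstk (selenocysteine-tRNA kinase, 0.31 on the log2 scale, limma adjusted p = 0.25), Pus1 (a pseudouridine synthase, 0.24) and Dtd1 (a D-aminoacyl-tRNA deacylase, 0.28, or 0.16 without liver replicate 1). Among 13 mitochondrial translation factors the median was 0.03, and Tufm, the mitochondrial elongation factor that carries charged tRNA, held 1050, 909 and 998 in bone marrow and 1308, 1143 and 1240 in liver (0.32 ± 0.08, adjusted p = 0.14). Gfm1 and Ict1, an elongation and a release factor of mitochondria, had log2 fold changes of 0.20 and 0.29. Among 16 amino acid transporters the median was -0.15, with Slc1a5, a glutamine carrier, at -0.20 (adjusted p = 0.13), Slc7a6 at -0.31 and Slc36a4 at -0.39. Of 22 mitochondrial tRNA genes only 7 passed the filter on low values and were tested, with a median of -0.18. The log2 fold changes of mt-Te, mt-Tq and mt-Ty were -0.59, 0.36 and -0.18 (limma adjusted p = 0.30, 0.49 and 0.57). As single libraries were left out, mt-Tq ran from 0.23 to 0.56 and mt-Ty from -0.29 to -0.08.

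**Figure D4:**
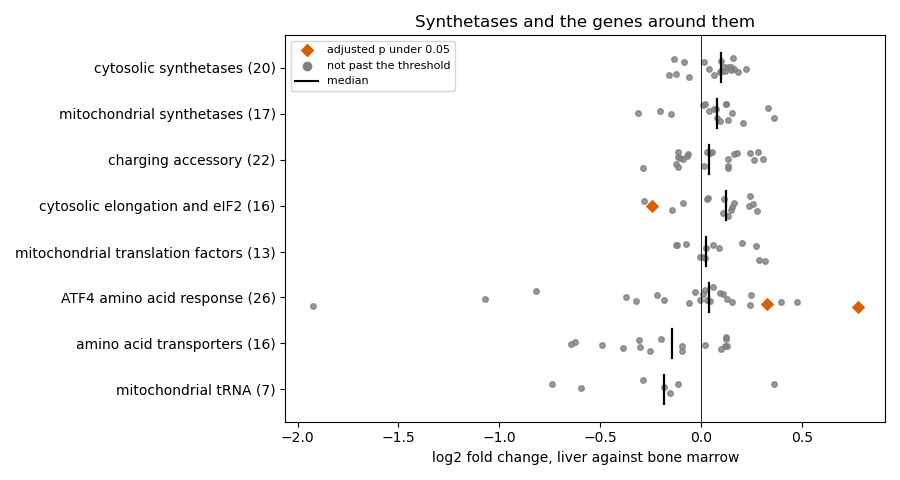
log2 fold changes, liver against bone marrow, of the synthetases and of the genes around them, 1 point per tested gene, with the number of genes in brackets, a bar at the median and orange diamonds for an adjusted p under 0.05. Atf4 and Atf3 on the right and Eef1a1 on the left are the genes that passed.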

How the data were processed

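The authors deposited 1 table of normalized counts, a signal per gene (reads divided by a library's size factor), for 6 libraries made with a low-input SMARTer and Nextera XT kit, which does not mark strand. STAR 2.6.0c, Trimmomatic 0.36, bcl2fastq 2.19.0, R 3.4.1 and DESeq2 1.16.1 appear in the submitters' processing notes. Neither genome build nor gene counter is given in the sources used here. Whole reads were recovered from the steps of the deposited values, with 100% of them whole within 0.01, at 9.73 to 18.5 M reads a library.

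The test was limma 3.58.1 (R 4.3.3) on log2(normalized count + 1) with a variance trend, two-sided, adjusted by Benjamini-Hochberg over 14298 genes with a mean of at least 10. On that scale the fold changes of low genes are understated. It called 145 genes, edgeR 4.0.16 on the recovered reads 142 and DESeq2 1.42.0 622. Replicate pairs of a tissue differed by 6.93 to 28.3 times sampling noise (chi-square per degree of freedom), so none was counted as 1 sample. Exon lengths, overlaps and similar transcripts (blastn 2.17.0) came from GENCODE M21 on GRCm38. The length behind a level per kb was the union of exons over a gene's basic transcripts.

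The values of 1 member are not reported here by name. Members and lists were chosen with earlier results of these data known. Values in every library are given for members past the threshold and for those without overlap and with a log2 fold change of at least 0.3 in size. They are also given for the 4 largest in each direction, and for the partners of all these members. Per list, log2 fold changes are given for the genes past the threshold or else the 3 with the smallest adjusted p. Of these list genes Atf4, Eef1a1 and Tufm have values in every library. Alternatives were other scalings, pseudocounts, filters and tools, array weights, a replicate block and leaving out libraries.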

Additional observations from a re-analysis of the deposited data

How the results depend on the processing

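Over the 17 alternative fits, 30 of the 39 synthetase genes kept the direction of their fold change. The other 9, Aars2, Aimp1, Nars2, Wars and Wars2 among them, changed sign in at least 1, all with a log2 fold change of at most 0.14 in size, and so did 31 of 100 tested genes of the pathway lists, Phgdh and Eif2ak4 among them. The difference between the compartments, close to 0, ranged from -0.03 to 0.02. No synthetase gene was called in any alternative but 2. DESeq2 called 1 (Yars2), with 622 genes in all, and array weights called 10 (8 higher and 2 lower in liver), with 3217 genes in all; the weights' fit gave a convergence warning. Leaving out 1 library gave 6 to 433 genes differing, 0 synthetase genes in each case, and a cytosolic median from 0.049 (without bone marrow replicate 1) to 0.143 (without bone marrow replicate 2); the count was 433 without liver replicate 1, 86 without liver replicate 2, 8 without liver replicate 3, and 11, 17 and 6 without bone marrow replicates 1, 2 and 3. Without both replicate 3 libraries 2 genes differed. With the replicate number as a block, 525 genes and 0 synthetase genes differed; deviations of same-numbered libraries correlated at 0.44, 0.40 and 0.06, and liver replicate 3 correlated better with bone marrow replicate 2 (0.15) than with its own number, so by the rule used (every pair above 0.1, or a source given in the labels) the numbers were not taken to pair the libraries. The sex-linked transcripts nonetheless went with the number in both tissues, the Y-linked sum being 145 and 0 in replicate 1, 2987 and 2675 in replicate 2 and 1553 and 1634 in replicate 3 of bone marrow and liver. No label says whether a number marks a shared source. The main fit, which called 145 genes, takes no account of one. The cause of the changes between fits was not tested. Leaving out Lars2, an alternative chosen after seeing the data, moved neither summary beyond the spread. The fewest reads behind a value were 95 for a mitochondrial and 548 for a cytosolic gene.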
